A study of Mus musculus with 8 samples.

Results

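The genes described here are 9 genes of eosinophils, basophils and mast cells, selected on values of these same arrays in which some of them moved far with the cytokine. They are Prg2, Prg3, Epx, Il5ra, Fcer1a, Ms4a2, Mcpt8, Cma1 and Cd200r3. Every probe set that the platform annotation assigns to 1 of these symbols alone was taken, which gave 11 probe sets of 45037, for 9 of 18193 genes, with 2 probe sets each for Ms4a2 and Cd200r3. After a filter on dim genes 8 of the 9 were among the 13063 genes tested, and Fcer1a was not.

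All samples were 32Dcl3 cells, murine bone marrow progenitors that depend on interleukin-3 (IL-3) and turn into neutrophil-like cells under granulocyte colony-stimulating factor (G-CSF). One culture carried pMYs-FLAG-ASXL1-MT-IG, a retroviral vector for FLAG-tagged mutant ASXL1 (ASXL1-MT), a chromatin regulator mutated in myeloid neoplasms. The other carried the empty vector pMYs-IG (mock). RNA of each culture in IL-3 and at 2, 6 and 24 h of G-CSF went onto 1 Affymetrix array per condition, 8 arrays in all. Nothing in the labels tells whether the ASXL1 cDNA was human or mouse, whether IL-3 was withdrawn, or whether each time point was a culture of its own. No condition was replicated, so the number of arrays limits the precision. The p-values rest on spread between arrays, which may be technical and also holds any difference in G-CSF response between the cultures. They do not measure spread between replicate cultures.

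Eosinophils store a few very basic proteins in large granules, among them major basic protein and eosinophil peroxidase, and depend on interleukin-5 for growth and survival. Mast cells and basophils carry the high-affinity IgE receptor, made of an alpha, a beta and a shared gamma chain, and keep serine proteases in their granules. Both lineages come from myeloid progenitors in which the transcription factors GATA1, GATA2, PU.1 and the C/EBP family set the choice between granulocyte fates.

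Each deposited value is a log2 expression level from which the probe set's own median across the 8 arrays was subtracted, so a value of 0 is the middle of a probe set's own range and levels cannot be compared between genes. Differences are log2 differences ± the standard error of 1 additive limma fit on time point and culture. Because the 9 genes were chosen on these values, their own values are a description and carry no p. A lower or higher value in a whole culture can come from another share of cells or from another amount of RNA per cell, which cannot be told apart here.

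The promoters of 4 of the genes are shown first, because they cover granule and receptor genes and differ in how many GATA motifs the window holds. Each window is 300 bases around the gene start, most of them upstream, in the mouse build GRCm38.p6 as RefSeq gives it, and is printed 5′ to 3′ in the direction of transcription. Capitals mark a GATA motif on either strand, searched in 4 forms. The forms AGATAA and, with the other first base, TGATAA end in A. The forms AGATAG and, likewise, TGATAG end in G. Prg3 lies at chr2:84987965-84988264 (plus strand), Il5ra at chr6:106748988-106749287 (minus strand), Cd200r3 at chr16:44943428-44943727 (plus strand) and Epx at chr11:87875487-87875786 (minus strand).
Prg3: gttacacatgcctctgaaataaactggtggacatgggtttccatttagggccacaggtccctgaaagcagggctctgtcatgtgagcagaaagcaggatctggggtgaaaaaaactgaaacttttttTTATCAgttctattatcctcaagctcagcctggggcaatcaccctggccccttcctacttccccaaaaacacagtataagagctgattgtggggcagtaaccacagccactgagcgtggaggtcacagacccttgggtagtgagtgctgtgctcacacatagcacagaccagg
Il5ra: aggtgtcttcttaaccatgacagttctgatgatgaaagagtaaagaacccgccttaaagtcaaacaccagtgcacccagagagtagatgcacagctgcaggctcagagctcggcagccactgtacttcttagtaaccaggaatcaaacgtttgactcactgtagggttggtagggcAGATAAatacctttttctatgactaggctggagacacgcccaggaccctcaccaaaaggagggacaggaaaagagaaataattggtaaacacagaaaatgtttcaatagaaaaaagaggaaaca
Cd200r3: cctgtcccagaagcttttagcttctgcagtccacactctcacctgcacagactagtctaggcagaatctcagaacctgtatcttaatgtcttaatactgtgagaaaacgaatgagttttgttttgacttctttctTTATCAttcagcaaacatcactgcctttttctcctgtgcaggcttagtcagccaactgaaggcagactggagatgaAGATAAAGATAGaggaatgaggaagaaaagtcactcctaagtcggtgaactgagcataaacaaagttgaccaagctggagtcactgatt
Epx: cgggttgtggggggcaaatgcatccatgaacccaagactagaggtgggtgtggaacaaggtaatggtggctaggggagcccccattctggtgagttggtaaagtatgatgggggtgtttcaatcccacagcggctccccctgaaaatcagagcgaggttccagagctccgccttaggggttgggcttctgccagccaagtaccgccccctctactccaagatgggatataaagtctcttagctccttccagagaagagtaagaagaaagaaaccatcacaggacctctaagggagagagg
The Prg3 and Il5ra windows each hold 1 GATA match, the Cd200r3 window holds 3 and the Epx window holds 0.

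Of the 9 genes 8 had a promoter in the table used. A GATA motif was found in 6 of these 8 windows, with 3 matches each in Cd200r3 and Ms4a2, 1 match each in Cma1, Fcer1a, Il5ra and Prg3, and none in Epx or Mcpt8. Over all 32851 promoters of 300 bases in the table, 29.8% held such a motif. The C/EBP motif TTGCNNAA, searched on both strands, was in 2 of the 8 windows (Cd200r3 and Fcer1a) and in 10.8% of all promoters. The ETS motif GAGGAA, bound by PU.1, was in 4 of the 8 (Cd200r3, Fcer1a, Il5ra and Mcpt8) and in 28.3% of all. The STAT motif TTCNNNGAA was in 0 of the 8 and in 8.30% of all. In the Cd200r3 window a GATA match overlaps an ETS match. A match is a run of letters and not a measured binding site.

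**Figure D1:**
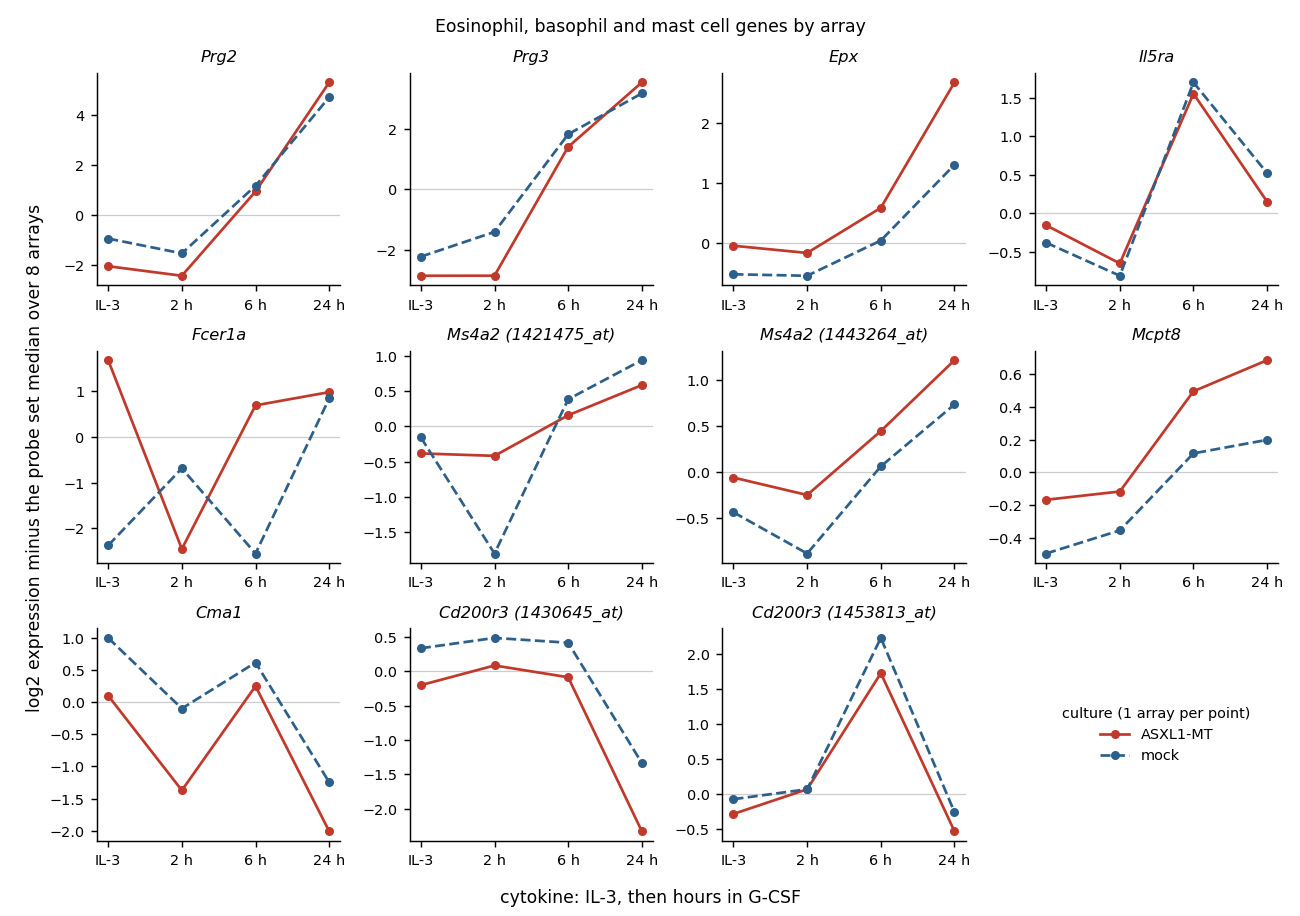
Values of the 11 probe sets on each of the 8 arrays, as log2 expression minus the median of the probe set, against the cytokine condition, with 1 array per point. Prg2, Prg3 and Epx are highest at 24 h in both cultures, Il5ra and 1 probe set of Cd200r3 are highest at 6 h, and Cma1 and the other probe set of Cd200r3 are lowest at 24 h.

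At 24 h the eosinophil granule genes Prg2 and Prg3 had the largest differences of the 9 genes. Prg2 encodes major basic protein, the main protein of the eosinophil granule core. It stood at -2.05 in IL-3 and at -2.43, 0.94 and 5.31 after 2, 6 and 24 h of G-CSF in ASXL1-MT cells, and at -0.94, -1.54, 1.17 and 4.72 on the same arrays of mock cells. Both cultures were low in IL-3 and at 2 h, higher at 6 h and highest at 24 h, with no overlap between the early and the late arrays. Against IL-3 the difference over both cultures was 2.55 ± 0.47 at 6 h, a ratio of 5.87, and 6.51 ± 0.47 at 24 h, a ratio of 91.1. The 24 h array exceeded the 6 h array by 4.37 in ASXL1-MT cells and by 3.54 in mock cells.

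Prg3 encodes a homologue of major basic protein, and in GRCm38.p6 it lies on chromosome 2 with 0 protein-coding genes between it and Prg2. Its values were -2.86, -2.86, 1.41 and 3.54 in IL-3 and at 2, 6 and 24 h in ASXL1-MT cells, against -2.23, -1.41, 1.83 and 3.18 in mock cells. It too was low on the early arrays and highest at 24 h. The difference from IL-3 was 4.16 ± 0.45 at 6 h, a ratio of 17.9, and 5.91 ± 0.45 at 24 h, a ratio of 59.9. Between 6 and 24 h Prg3 gained 2.14 in ASXL1-MT cells and 1.35 in mock cells, less than Prg2 did in either culture. For both genes the arrays in IL-3 were dim, with rough estimated levels of 4.90 (Prg2) and 4.18 (Prg3) in ASXL1-MT cells and of 6.01 (Prg2) and 4.81 (Prg3) in mock cells. All of these lie below the table's median of 6.30. Probe sets with an estimated median level of 4 to 8, as these 2 have, had a median SD over the arrays of 0.737, against 0.256 at 8 or more. The ratios to IL-3 are therefore not exact.

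Epx encodes eosinophil peroxidase, a granule enzyme that makes hypohalous acids. It stood at -0.04, -0.16, 0.59 and 2.67 in IL-3 and at 2, 6 and 24 h in ASXL1-MT cells, against -0.52, -0.54, 0.04 and 1.30 in mock cells. Its course was later than that of Prg3, with 0.59 ± 0.28 at 6 h and 2.26 ± 0.28 at 24 h, a ratio of 4.80. In mock cells at 24 h its difference from the IL-3 array, 1.82, was smaller in size than that of the chymase gene Cma1, -2.25.

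Il5ra encodes the alpha chain of the interleukin-5 receptor, which gives the receptor its specificity. Its values were -0.15, -0.65, 1.55 and 0.15 in ASXL1-MT cells and -0.38, -0.81, 1.70 and 0.52 in mock cells, in IL-3 and at 2, 6 and 24 h. Unlike the granule genes it peaked at 6 h in both cultures. The difference from IL-3 was 1.89 ± 0.18 at 6 h, a ratio of 3.71, and 0.60 ± 0.18 at 24 h. The last value differed between the cultures, at 0.31 in ASXL1-MT cells and 0.90 in mock cells, and without the mock array at 24 h the fit gave 0.38. The 24 h array minus the 6 h array was -1.40 in ASXL1-MT cells and -1.18 in mock cells.

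Among the mast cell and basophil genes, Ms4a2 encodes the beta chain of the high-affinity IgE receptor, which amplifies its signal. Its probe set 1443264_at read -0.06, -0.25, 0.44 and 1.21 in IL-3 and at 2, 6 and 24 h in ASXL1-MT cells, against -0.44, -0.88, 0.06 and 0.73 in mock cells. The other, 1421475_at, read -0.38, -0.42, 0.16 and 0.58 in ASXL1-MT cells, against -0.16, -1.80, 0.38 and 0.94 in mock cells. Both probe sets were lowest at 2 h and highest at 24 h in each culture, with differences from IL-3 at 24 h of 1.22 ± 0.13 and 1.03 ± 0.50. They differ on the cultures, since ASXL1-MT was above mock on every pair of arrays for 1443264_at and only at 2 h for 1421475_at.

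Fcer1a encodes the alpha chain, which binds IgE. Its values were 1.68, -2.46, 0.69 and 0.98 in ASXL1-MT cells and -2.38, -0.69, -2.56 and 0.84 in mock cells, in IL-3 and at 2, 6 and 24 h. They followed no common course in the cultures, and the difference at 24 h, 1.26 ± 1.66 in a fit of all probe sets, was smaller than its error. Its estimated median level was 3.23, and the 8641 probe sets estimated below 4 had a median SD over the arrays of 1.35, against 0.737 for the 22396 at 4 to 8 and 0.256 for the 14000 at 8 or more. At this brightness no difference was detectable.

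Mcpt8 encodes a serine protease that in the mouse marks basophils. It stood at -0.17, -0.12, 0.49 and 0.68 in IL-3 and at 2, 6 and 24 h in ASXL1-MT cells, against -0.49, -0.35, 0.12 and 0.20 in mock cells. The differences from IL-3 were small and even between the cultures, 0.63 ± 0.10 at 6 h and 0.77 ± 0.10 at 24 h. Both late arrays of each culture lay above both early ones.

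Cma1 encodes mast cell chymase, and lies with Mcpt8 on chromosome 14, where 5 protein-coding genes stand between them (Cma2, Mcpt1, Mcpt2, Mcpt9 and Mcpt4). It went the other way, with 0.10, -1.37, 0.25 and -2.01 in IL-3 and at 2, 6 and 24 h in ASXL1-MT cells, against 1.00, -0.10, 0.61 and -1.25 in mock cells. In each culture it was lower at 2 h, back near its IL-3 value at 6 h and lowest at 24 h. The difference from IL-3 was -1.29 ± 0.24 at 2 h, -0.12 ± 0.24 at 6 h and -2.18 ± 0.24 at 24 h. By 24 h these serine proteases of granules stood on opposite sides of their IL-3 values, Mcpt8 above and Cma1 below, in both cultures.

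Cd200r3 encodes an activating member of the CD200 receptor family on basophils and mast cells, and its 2 probe sets followed different courses. The probe set 1453813_at read -0.28, 0.07, 1.72 and -0.53 in IL-3 and at 2, 6 and 24 h in ASXL1-MT cells, against -0.07, 0.07, 2.23 and -0.26 in mock cells. It peaked at 6 h, with a difference from IL-3 of 2.15 ± 0.17 (a ratio of 4.44), and at 24 h the difference was -0.22 ± 0.17. The probe set 1430645_at read -0.20, 0.09, -0.09 and -2.33 in ASXL1-MT cells, against 0.34, 0.49, 0.42 and -1.33 in mock cells. It had no peak at 6 h (0.10 ± 0.18) and was lowest at 24 h (-1.90 ± 0.18). Both were lower at 24 h than at 6 h, by -2.24 in ASXL1-MT cells and -1.75 in mock cells for 1430645_at, and by -2.25 in ASXL1-MT cells and -2.48 in mock cells for 1453813_at. The rough estimated levels of the probe sets are close, 6.60 for 1430645_at and 6.21 for 1453813_at. By the rounded level 1430645_at stands for the gene in counts, a choice that rests on this small difference. Which transcripts each detects was not analysed here.

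**Figure D2:**
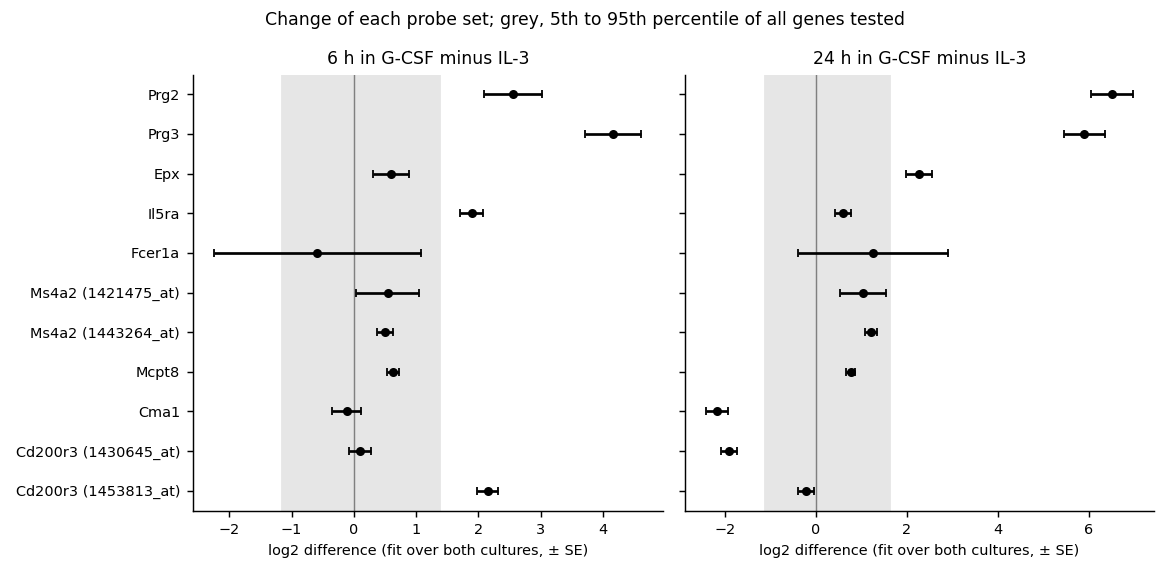
Log2 difference from IL-3 at 6 h (left) and 24 h (right) of G-CSF for each of the 11 probe sets, over both cultures, with the standard error of the limma fit as bars. The grey band spans the 5th to 95th percentile of all genes tested, -1.15 to 1.38 at 6 h and -1.13 to 1.62 at 24 h, and Prg2, Prg3, Epx, Cma1 and 1 Cd200r3 probe set lie outside it at 24 h.

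Counted at a false discovery rate of 0.05 in limma over all 13063 genes, 4 of the 8 genes tested were higher at 6 h (Prg2, Prg3, Il5ra and Mcpt8), where 9.73% of all genes were, and 0 were lower, where 7.23% were. At 24 h 4 were higher (Prg2, Prg3, Epx and Mcpt8), against 14.5% of all genes, and 2 were lower (Cma1 and Cd200r3 by 1430645_at), against 11.8%. At 2 h 0 were higher and 0 lower, where 0.00766% and 0.0153% of all genes were called, 3 genes with 1052 at an unadjusted p under 0.05. Since these values chose the genes, nothing is read from the counts. By rough estimated level, Prg2, Prg3 and Il5ra also lay below the filter's level on both IL-3 arrays. Cma1 and Cd200r3 did so on both 24 h arrays. These genes thus entered the test through the arrays where they were high. The median difference of the 8 genes was -0.27 at 2 h, 0.61 at 6 h and 0.90 at 24 h, beside 0.00, 0.11 and 0.09 for all genes tested. The split of all calls at 24 h depended on the scaling between arrays, with 55.3% of them higher as reported, 46.5% after quantile normalization and 63.7% when the arrays were centred on their medians. Taken culture by culture, Prg2, Prg3 and Il5ra were at least 1 higher at 6 h than in IL-3 in both, as 4.25% of all genes were. At 24 h Prg2, Prg3 and Epx were at least 1 higher in both (6.63% of all genes), and Cma1 and Cd200r3 by 1430645_at were at least 1 lower (3.05%). These calls need every array compared. Without any 1 of the arrays in IL-3 or at the time compared, limma called 0 genes at 6 h (3161 to 3332 at an unadjusted p under 0.05) and 0 at 24 h (3913 to 4137), which holds for every adjusted p below. Without any 1 of the other arrays it called 549 to 573 genes at 6 h, against 2215 with all arrays, and 2125 to 2279 at 24 h, against 3437.

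Between the cultures, with ASXL1-MT set against mock across the whole course, limma called 0 of 13063 genes (0%), with 850 at an unadjusted p under 0.05 and a smallest adjusted p of 0.252. Epx and Mcpt8 were nonetheless higher in ASXL1-MT cells on all 4 pairs of arrays, as 8.31% of all genes were, and Cma1 and Cd200r3 by 1430645_at were lower on all 4, as 8.64% were. For Epx, ASXL1-MT minus mock was 0.47 in IL-3 and 0.38, 0.54 and 1.37 at 2, 6 and 24 h, so the gap was widest on the last pair. For Mcpt8 it was 0.33, 0.24, 0.38 and 0.48, close to even over the course. For Cma1 it was -0.90, -1.27, -0.37 and -0.76.

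The gap changed sign along the course for the major basic protein genes. ASXL1-MT minus mock was -1.11, -0.90, -0.23 and 0.60 for Prg2 in IL-3 and at 2, 6 and 24 h, and -0.63, -1.45, -0.42 and 0.36 for Prg3. Both were lower in ASXL1-MT cells on the first 3 pairs and higher on the last. Il5ra went the other way, with 0.23, 0.16, -0.15 and -0.37. Over the 4 pairs the fitted difference was -0.41 ± 0.33 for Prg2, -0.53 ± 0.32 for Prg3, 0.69 ± 0.20 for Epx, -0.03 ± 0.13 for Il5ra, 0.36 ± 0.07 for Mcpt8, -0.83 ± 0.17 for Cma1 and -0.61 ± 0.12 for Cd200r3 by 1430645_at. These errors treat the 4 time points of 1 culture per vector as replicates, so they do not measure spread between cultures. The median of the 8 genes was -0.22, beside 0.00 over all genes. With 1 array per culture and time, a difference in the course between the cultures was not tested.

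**Figure D3:**
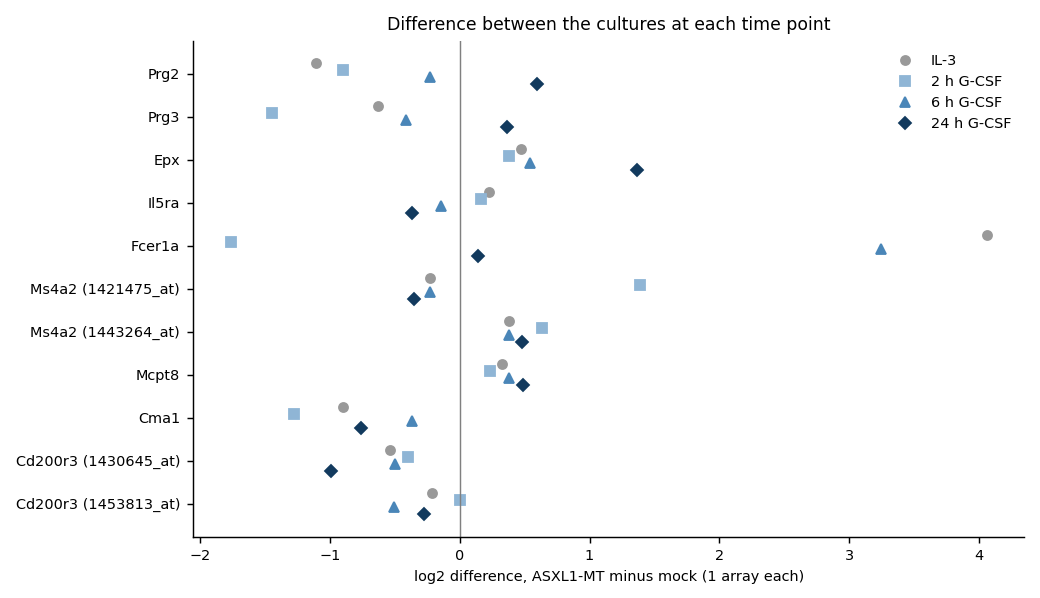
Log2 difference between the cultures, ASXL1-MT minus mock, for each of the 11 probe sets at the 4 time points, with 1 array on each side of every point. Epx and Mcpt8 lie right of 0 at all 4 time points, Cma1 and Cd200r3 1430645_at lie left of it, and Prg2 and Prg3 cross from left to right at 24 h, where they read 0.60 and 0.36.

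Other genes of the same cells were listed by their textbook roles and tested. The lists were chosen with earlier results of these data known, so their adjusted p-values are not independent of these arrays. Of 28 other eosinophil gene symbols listed, 12 had a probe set annotated to that symbol alone and 5 were bright enough to test. Probe sets annotated to several symbols were not used, so a symbol left out may still be on the array. Siglecf, a sialic acid lectin of the eosinophil surface, read -0.55, -0.61, 0.31 and 1.69 in IL-3 and at 2, 6 and 24 h in ASXL1-MT cells, against -0.31, -0.40, 0.76 and 1.69 in mock cells. It rose at 6 h by 0.97 ± 0.13 (limma adjusted p 0.0226) and at 24 h by 2.12 ± 0.13 (adjusted p 0.00612). Leukotriene C4 synthase, Ltc4s, which is in the mast cell list too, rose at 24 h by 0.98 ± 0.14 (limma adjusted p 0.0159). These were the 2 of 5 that rose at 24 h, and 0 fell, with a median of 0.97 beside 0.09 over all genes, of which 14.5% rose and 11.8% fell. The eosinophil chemokine receptor Ccr3 and the ribonuclease Ear3 were on the array but below the filter. Of the 5 tested, 1 (Siglecf) rose at 6 h and 0 fell, where 9.73% of all genes rose and 7.23% fell. The median of the 5 at 6 h was -0.15, beside 0.11 over all genes. Without the filter on dim genes Siglecf missed the threshold at 6 h (limma adjusted p 0.061).

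Of 34 other mast cell and basophil gene symbols 26 had a probe set annotated to that symbol alone and 18 were tested. At 24 h 6 rose (Cd9, Cpa3, Itga2b, Ltc4s, Rab44 and Srgn) and 1 fell (Il4), and at 6 h 3 rose (Cpa3, Ndst2 and Rab44) and 1 fell (Enpp3), with medians of 0.37 and 0.35. Of all genes tested, 14.5% were called up and 11.8% down at 24 h, and 9.73% up and 7.23% down at 6 h, so the counts at 6 h are near those shares. Without the filter on dim genes 1 rose at 6 h. Il4 at 24 h and Enpp3 at 6 h were below the filter's level on both arrays of that time. Several of these genes are shared with other myeloid cells, such as the integrin chain Itga2b of megakaryocytes and the granule proteoglycan core Srgn. Cpa3, the carboxypeptidase of mast cell granules, read -0.63, -0.46, 0.86 and 1.47 in IL-3 and at 2, 6 and 24 h in ASXL1-MT cells, against -0.87, -0.79, 0.46 and 0.53 in mock cells. It rose by 1.41 ± 0.20 at 6 h (limma adjusted p 0.0247) and by 1.75 ± 0.20 at 24 h (adjusted p 0.0114). Like Mcpt8 it was higher in ASXL1-MT cells on all 4 pairs, by 0.48 ± 0.14, which did not pass (limma adjusted p 0.717). Rab44, a large Rab protein of mast cell granules, rose at 24 h by 0.91 ± 0.10 (limma adjusted p 0.0101). At 24 h the cytokine Il4 fell by 1.62 ± 0.35 on the log2 scale (limma adjusted p 0.0389, and 0.0748 without the filter). The histamine-forming enzyme Hdc did not pass at 24 h (-0.42 ± 1.07, limma adjusted p 0.816). The stem cell factor receptor Kit and the proteases Mcpt1, Mcpt2, Mcpt4 and Tpsg1 were below the filter. Without the filter Cpa3 missed the threshold at 6 h (limma adjusted p 0.0604) and Itga2b at 24 h (0.0581).

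The chains and signal carriers that work with the receptors on the list were followed next. Of 20 genes of IgE receptor signalling 18 were tested, and at 24 h 7 rose (Cd300lf, Fcer1g, Fyn, Gab2, Lat2, Syk and Vav1) and 0 fell, with a median of 0.39, where 14.5% of all genes rose and 11.8% fell. At 6 h 4 rose and 1 fell (Sos1), with a median of 0.23, where 9.73% of all genes rose and 7.23% fell. Without the filter on dim genes or with probe sets averaged, 0 rose at 6 h. Fcer1g, the gamma chain shared with Fc receptors of other myeloid cells, rose by 0.95 ± 0.08 at 24 h (limma adjusted p 0.00732). Its values were nearly the same in the cultures, -0.28, -0.16, 0.16 and 0.66 in ASXL1-MT cells and -0.27, -0.20, 0.16 and 0.69 in mock cells. The kinase Syk rose by 1.32 ± 0.10 (limma adjusted p 0.00669) and the receptor Cd300lf by 1.33 ± 0.12 (adjusted p 0.00847). Of the 3 chains of the IgE receptor, gamma therefore passed the test, beta was a member with differences of 1.03 and 1.22, and alpha was too dim to measure.

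Of 12 genes of interleukin-5 and interleukin-3 receptor signalling 10 were tested. At 24 h 7 rose (Bcl6, Csf2rb, Csf2rb2, Il3ra, Jak2, Pim1 and Stat5a) and 2 fell (Cish and Socs2), and at 6 h 4 rose and 1 fell, with medians of 1.02 and 0.59. Of all genes tested, 14.5% were called up and 11.8% down at 24 h, and 9.73% up and 7.23% down at 6 h. Csf2rb, the beta chain that pairs with Il5ra, read -0.99, -0.72, 0.70 and 1.08 in IL-3 and at 2, 6 and 24 h in ASXL1-MT cells, against -1.15, -0.56, 0.56 and 0.85 in mock cells. It rose by 1.70 ± 0.13 at 6 h (limma adjusted p 0.0123) and by 2.03 ± 0.13 at 24 h (adjusted p 0.00612), and was still high at 24 h, when the difference of Il5ra was down to 0.60 ± 0.18. Csf2rb2, the beta chain that in the mouse serves interleukin-3 alone, rose by 1.47 ± 0.11 at 6 h (limma adjusted p 0.0123) and by 1.39 ± 0.11 at 24 h (adjusted p 0.00732). Csf2rb and Csf2rb2 are close paralogues, and probe sets may not separate them. The STAT5 feedback gene Cish fell by 2.40 ± 0.16 on the log2 scale at 6 h (limma adjusted p 0.0123) and by 1.82 ± 0.16 at 24 h (adjusted p 0.00803). The repressor Bcl6 rose by 3.11 ± 0.23 at 24 h (limma adjusted p 0.00704). The interleukin-3 alpha chain Il3ra rose by 1.38 ± 0.22 at 24 h (limma adjusted p 0.0212) and did not pass at 6 h (0.69 ± 0.22, adjusted p 0.117).

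Of 6 genes of the CD200 receptor family and its adaptors 4 were tested, and at 24 h 3 rose (Cd200r1, Hcst and Tyrobp) and 1 fell (Cd200r4), where 14.5% of all genes rose and 11.8% fell. Tyrobp, the adaptor DAP12 through which Cd200r3 signals, read -0.27, -0.63, 0.04 and 1.97 in IL-3 and at 2, 6 and 24 h in ASXL1-MT cells, against -0.05, -0.04, 0.22 and 2.12 in mock cells. It rose by 2.21 ± 0.14 at 24 h (limma adjusted p 0.0063), and at 6 h it did not pass (0.30 ± 0.14, adjusted p 0.235). Cd200r4, a close relative of Cd200r3, read -0.13, 0.39, 0.79 and -0.81 in ASXL1-MT cells and -0.20, 0.13, 1.02 and -1.12 in mock cells. It rose at 6 h by 1.07 ± 0.16 (limma adjusted p 0.0278) and at 24 h it fell by 0.80 ± 0.16 on the log2 scale (adjusted p 0.0347). Cd200r4 thus peaked at 6 h, as did Cd200r3 by 1453813_at, whose difference from IL-3 at 24 h was -0.22 ± 0.17. The other Cd200r3 probe set, 1430645_at, had no peak at 6 h and was lowest at 24 h. How far the probe sets of the family separate its genes was not analysed here. Without the filter on dim genes neither call of Cd200r4 held (limma adjusted p 0.0685 at 6 h and 0.0759 at 24 h). The inhibitory receptor Cd200r1 rose by 0.54 ± 0.10 at 24 h (limma adjusted p 0.025), but not without the filter (0.071) or with its probe sets averaged (0.32, adjusted p 0.579).

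Of 18 transcription factors of these lineages listed, 17 had a probe set annotated to that symbol alone and all 17 were tested. At 24 h 5 rose (Cebpb, Id2, Runx1, Spi1 and Stat6) and 2 fell (Gata2 and Zfpm1), and at 6 h 4 rose (Gata1, Id2, Spi1 and Stat6) and 1 fell (Id1), with medians of 0.27 and 0.07. Beside the 14.5% of all genes that rose and 11.8% that fell at 24 h, and the 9.73% and 7.23% at 6 h, the counts of falls are near the share over all genes. Without the filter on dim genes 2 rose at 6 h. Gata1, which is needed for eosinophil formation in the mouse, read 0.00, 0.04, 1.15 and -0.00 in IL-3 and at 2, 6 and 24 h in ASXL1-MT cells, against -0.27, -0.30, 0.86 and -0.10 in mock cells. It rose at 6 h by 1.14 ± 0.10 (limma adjusted p 0.0126) and did not pass at 24 h (0.09 ± 0.10, adjusted p 0.572). The time of its peak was that of Il5ra and of Cd200r3 by 1453813_at.

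Gata2, a factor of mast cell and basophil progenitors, read 0.47, 0.07, 0.61 and -0.86 in IL-3 and at 2, 6 and 24 h in ASXL1-MT cells, against 0.06, -0.53, -0.06 and -1.22 in mock cells. At 24 h it fell by 1.31 ± 0.12 on the log2 scale (limma adjusted p 0.0083). The course, with a dip at 2 h, a return at 6 h and a low at 24 h, was also the course of Cma1. PU.1, encoded by Spi1, rose by 1.16 ± 0.12 at 6 h (limma adjusted p 0.015) and by 1.45 ± 0.12 at 24 h (adjusted p 0.00732). Id2 rose by 2.63 ± 0.21 at 24 h (limma adjusted p 0.00732) and Cebpb by 1.02 ± 0.09 (adjusted p 0.00846). Cebpa did not pass at 24 h (1.03 ± 0.38, limma adjusted p 0.125). None of these promoter or factor measurements was joined in a test.

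**Figure D4:**
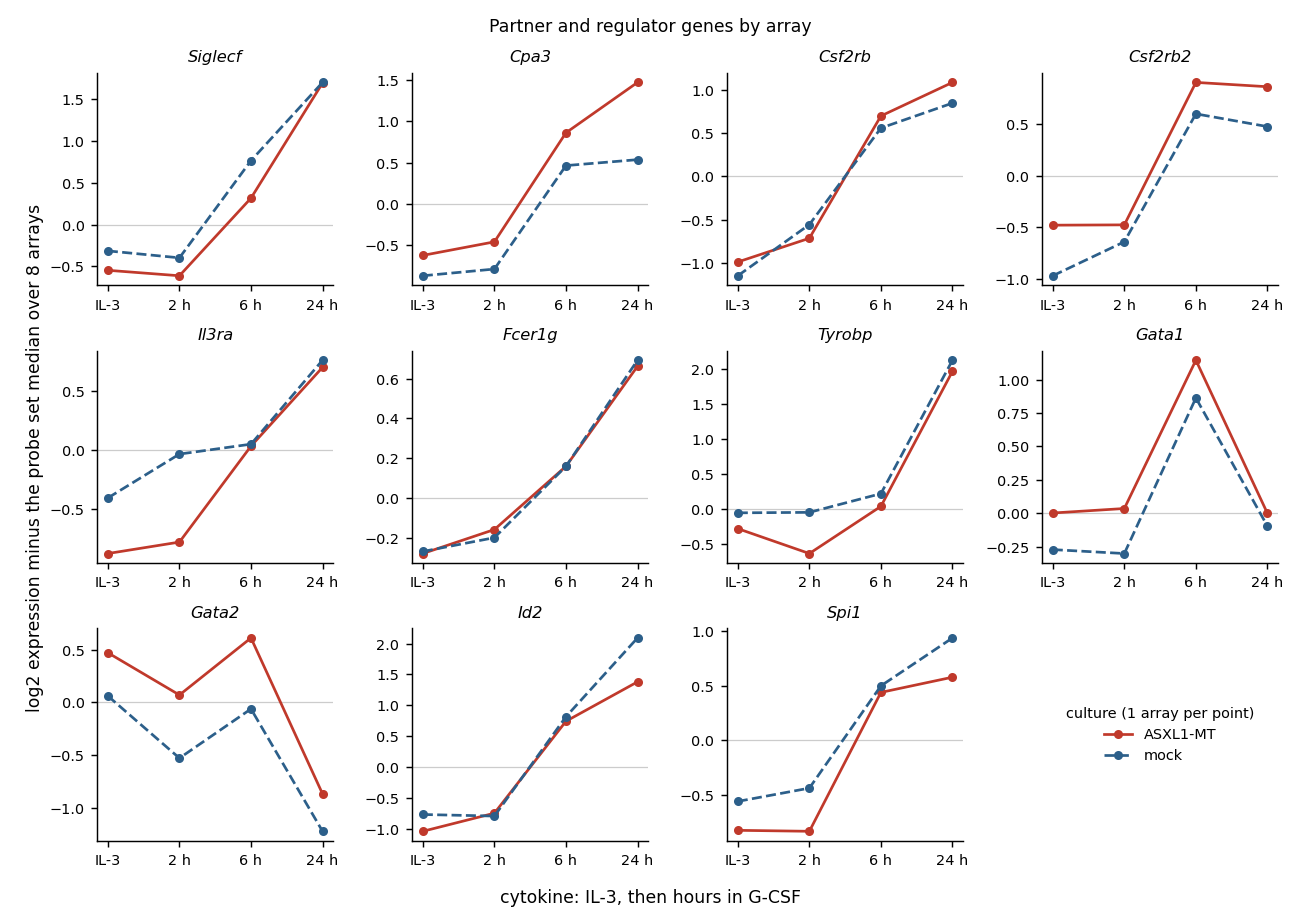
Values of 11 partner and regulator genes on each of the 8 arrays, as log2 expression minus the median of the probe set, against the cytokine condition, with 1 array per point. Siglecf, Csf2rb, Fcer1g, Tyrobp, Id2 and Spi1 are highest at 24 h in both cultures, Gata1 is highest at 6 h (1.15 in ASXL1-MT cells and 0.86 in mock cells), and Gata2 is lowest at 24 h.

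Among 2881 genes past the filter that spanned at least 2 log2 units over the arrays, those most like Prg2 by Pearson correlation over the 8 arrays were Csf3r, Arsb, Siglecf, Syne1 and Gadd45g (r of 0.991 to 0.989). Csf3r, the G-CSF receptor, differed from IL-3 by 2.16 ± 0.10 at 24 h. Those most like Ms4a2 by 1421475_at were Ikzf3, Il12a, Amz1, A730028G07Rik and Dmc1 (r of 0.987 to 0.963). The 8 arrays are 4 time points in each of 2 cultures, so any gene that follows time alone scores high on this measure.

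Marker genes of other cells moved in the same arrays, in which 14.5% of all genes tested rose and 11.8% fell at 24 h. At 24 h 8 of 11 neutrophil secondary granule genes tested rose and 0 fell, with Lrg1 at 5.25 ± 0.24, Ngp at 4.95 ± 0.26 and Hp at 4.92 ± 0.11 (limma adjusted p 0.00568, 0.00585 and 0.0052). Of 11 primary granule genes 8 rose and 3 fell, of 7 monocyte and macrophage genes 5 rose and 0 fell, and of 7 erythroid and megakaryocyte genes 3 rose and 1 fell. Of 4 lymphoid genes tested 0 rose and 0 fell. Of the genes that rose, 3 of monocytes (Ccr2, Mpeg1 and Mrc1) and 2 of erythroid cells and megakaryocytes (Epor and Vwf) were below the filter's level on both IL-3 arrays, and Klf1, which fell, was below it on both 24 h arrays. Their entry to the test thus rested on the arrays where they were high, and these counts support nothing. At 6 h, where 9.73% of all genes rose and 7.23% fell, 4 secondary granule genes rose and 0 fell. Of the primary granule genes 2 rose and 1 fell, and of the monocyte genes 1 rose and 1 fell. In addition 1 erythroid or megakaryocyte gene rose, and 0 lymphoid genes moved past the threshold. Apart from the secondary granule genes, these counts at 6 h are near the shares over all genes. Because the table is centred, summed marker levels cannot be formed. The part of other cell types in the results on the 9 genes was not tested.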

How the data were processed

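The deposited table holds 1 column per array, with 45037 probe sets as log2 values. Per the labels' design text, MAS 5.0 captured the intensities, and RMA is named in the submitters' processing notes, with no version there. How probe sets were centred on their medians (within 5e-07 of 0 in all), the log base, the scaling between arrays and the genome build are not given in the sources consulted. Base 2 was assumed, as in RMA output. Were the logs natural, every difference would be 1.44 times larger. The platform annotation gives 34945 probe sets 1 gene symbol, 932 several and 9160 none.

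Because the values are centred, which the design had not assumed, a rough level of each probe set was read off the floating-point spacing of its numbers, a step chosen after seeing the data. The spacing changes only at powers of 2, and between them the level leans on an assumed normal distribution (mean 6.5, SD 2.5). Levels near the filter, and small differences between levels, are therefore uncertain. Each gene took the probe set of highest rounded level, with ties broken by probe set type and then name. A gene was tested if at least 2 of its arrays reached the table's median level (6.30). limma 3.58.1 in R 4.3.3 (lmFit, eBayes) fitted time point and culture additively to the 8 arrays, with a Benjamini-Hochberg threshold of 0.05 over all genes, two-sided. The cultures serve as the replicates of a time point. The script was tested on simulated data drawn under the same assumed levels and additive design, so those assumptions were not tested.

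Named genes are the 9 members, partner genes listed by role, up to 4 called genes per list with the largest difference at 24 h, and the 5 genes most like Prg2 and Ms4a2. The members and lists were chosen with earlier results of these data known. The alternatives were no filter or a stricter one (70th percentile), the mean of all probe sets, median centring, quantile normalization, eBayes with trend and robust, and leaving out each array. Listed genes with no probe set annotated to their symbol alone, or removed by the filter, are not analysed here.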

Additional observations from a re-analysis of the deposited data

Results flagged for a closer look

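For 11 pairs of responses the 2 cultures went opposite ways against their own IL-3 array. Each response rests on 1 array against 1, and the difference between the cultures was not tested. Of the 9 genes, Fcer1a changed by -4.14 at 2 h in ASXL1-MT cells and by 1.69 in mock cells, a difference of -5.82, and by -0.70 and 3.22 at 24 h, a difference of -3.92. Its estimated level of 3.23 is below the filter on dim genes. Cma1 changed at 6 h by 0.15 in ASXL1-MT cells and by -0.38 in mock cells, a difference of 0.532.

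The other cases were in genes of the lists, given as ASXL1-MT minus mock. At 6 h the difference between the responses was 0.402 for Ltc4s, 0.0976 for Cd300lf, -0.0533 for Pim1, 0.263 for Gata2, -1.14 for Cebpa, -3.38 for the chemokine receptor Ccr2 and -0.848 for Vwf. At 24 h it was -0.178 for Gata1. Those of Cd300lf and Pim1 are close to 0 on both sides.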

How the results depend on the processing

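Over the values of the 8 tested genes under the alternatives, 406 moved by less than the spread and 34 moved more. Many of the 406 could not move. The filter and the eBayes setting leave a fitted difference as it is (32 values without the filter, 16 with the stricter one and 32 with trend and robust). Leaving out an array of a time not compared also leaves a difference from IL-3 unchanged. The 406 is therefore no measure of stability. No difference that had passed the threshold changed sign, but 6 of 32 differences, none of which had passed, took the other sign in 11 values: Cd200r3 at 6 h (-0.08 with quantile normalization), Cma1 at 6 h (up to 0.19), Epx at 2 h (up to 0.14), Prg3 at 2 h (down to -0.20), and Il5ra (up to 0.08) and Ms4a2 (down to -0.27) between the cultures. Prg2 at 24 h ranged from 5.65 to 7.18, Prg3 from 5.31 to 6.5, Epx from 1.6 to 2.71 and Cma1 from -2.39 to -2.1. Cd200r3 at 6 h ranged from -0.08 to 2.15, the highest value being that of its other probe set. At 24 h Cd200r3 ranged from -2.16 to -0.22, the value smallest in size again being that of its other probe set. Over those of the other named genes, 839 kept their side of the threshold, 312 lost it, 10 gained it and 1 reversed (Lyz1 at 6 h, -1.04 with the mean of all probe sets against 0.40). At 24 h limma called 3437 genes, and 1763 without the filter. At 6 h it called 2215, and 568 without the filter, 3467 with the stricter one, 3396 with trend and robust. Quantile normalization left 2102 at 6 h, of which 47% were higher against 57.4% in the values reported, and the median of all genes there was 0.01 against 0.11. At 2 h 3 genes passed, and 0 without the filter, 32 with the stricter one, 0 with probe sets averaged and 11 with trend and robust. ASXL1-MT against mock gave 0 under every alternative run. Leaving out 1 array gave 0 to 2279 calls at 24 h, 0 to 573 at 6 h and 0 to 0 at 2 h. The cause of these shifts was not tested. Counts of the lists at 24 h with all arrays ranged from 3 to 6 higher for other mast cell and basophil genes, 5 to 10 for IgE receptor signalling, 5 to 7 for receptor signalling, 4 to 5 for transcription factors and 2 to 3 for the CD200 receptor family, and stayed at 2 for other eosinophil genes. They were 1 to 4 for erythroid and megakaryocyte genes, 3 to 5 for monocyte genes, 6 to 8 for primary granules (1 to 3 lower) and 7 to 8 for secondary granules. At 6 h they ran from 0 to 7 for IgE receptor signalling, 1 to 5 for mast cell and basophil genes, 2 to 6 for transcription factors, 3 to 6 for receptor signalling, and 0 to 2 for the CD200 receptor family. Culture is a term of every fit, so the arrays of a culture are already blocked together, and the labels give no replicate numbers for a further block. Brightness limits what can be seen for Fcer1a and for listed genes below the filter.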
